A study of Homo sapiens with 4 samples.

Results

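The enzymes and transporters of glycolysis, gluconeogenesis and glycogen metabolism were read in Huh7 cells with and without a METTL16 guide. The genes were taken by name from a list of 39 symbols ordered by pathway step. That list was chosen with earlier results of these data known. A row was found for 38 of them among the 18806 symbols of the table, and 1 listed gene was not analysed here. Of these 38, 32 reached a mean of 1 TPM (a transcript level scaled to length and to a fixed total per library) over the 4 libraries and were tested among 11971 genes, and 6 stayed below it. Huh7 is a human hepatocellular carcinoma cell line. All 4 libraries came from 1 single-cell Cas9 clone of it, grown in medium with serum, infected with lentiviral guides and selected with hygromycin B. The control group carried a non-specific guide (sgNS, genotype WT in the labels, 2 libraries). The other carried a METTL16 guide (sgMETTL16, labelled as a METTL16 knockdown and named METTL16 KO in the study and here, 2 libraries), and METTL16 is an RNA methyltransferase. Both groups are thus guide populations on a single clone, and the labels do not say how many METTL16 guides were used. The study compared them to learn which transcripts change when METTL16 is depleted. The labels describe ribosomal RNA removal in 1 field and an mRNA kit in another. The replicates are called biological in the study, but nothing says that they came from separate cultures, so p-values measure the spread between these libraries, which may be technical.

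Glycolysis splits glucose into pyruvate in the cytosol. Hexokinase traps glucose as glucose 6-phosphate, phosphofructokinase commits it to breakdown, and pyruvate kinase makes the last ATP, whereas the steps between these 3 enzymes run in both directions. Liver can also run the route backwards: pyruvate carboxylase, phosphoenolpyruvate carboxykinase, fructose bisphosphatase and glucose 6-phosphatase bypass the one-way steps and release glucose. The PFKFB enzymes make and remove fructose 2,6-bisphosphate, the signal that activates phosphofructokinase and inhibits fructose bisphosphatase. Hepatocytes use liver forms of many of these enzymes, such as PKLR and G6PC, and hepatoma cells often carry HK2 and PKM.

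METTL16 (chr17:2405562-2511891, minus strand, GRCh38) was at 26.3 and 25.1 TPM in sgNS, against 17.6 and 18.8 TPM in METTL16 KO. It was lower by 0.50 on the log2 scale (SE 0.062, limma adjusted p = 2.4e-05), so its transcript was reduced and still present in the knockout libraries. Of the 11971 genes, 25.6% were lower and 50.1% higher in METTL16 KO at a Benjamini-Hochberg adjusted p under 0.05 in limma, the threshold behind every "rose" and "fell" here. A fall or a rise of at least 2-fold as well was called for 3.77% and 7.7% of genes. The median gene had a log2 fold change of 0.16, which dropped by 0.16 to about 0 after median-ratio scaling of the libraries, and most changes are lower by about that amount on that scale. The 100 most abundant genes took 32.6% and 32.8% of all TPM in sgNS and 28.6% and 28.7% in METTL16 KO. All 8 hepatocyte markers were present, 6 rose and 2 fell, and their summed level was 17877 and 17979 TPM in sgNS and 31099 and 30626 TPM in METTL16 KO. AFP, the fetal counterpart of albumin, made up most of the difference in that sum and rose by 2.54 log2, from 1737 and 1793 TPM to 10386 and 10197 TPM. FGB, a fibrinogen chain, rose by 1.84 log2, and the transferrin gene TF and the apolipoprotein gene APOB fell by 0.43 and 0.17. The 6 markers of leukocytes, endothelium, fibroblasts and basal epithelium summed to 5.76 to 6.09 TPM in sgNS and 4.53 to 5.43 TPM in METTL16 KO. Most of that was PECAM1, which fell, with KRT5 listed at 0 in all libraries and DCN in sgNS. The collagen genes of fibroblasts lay the other way at low levels, COL1A1 at 0.10 and 0.14 TPM in sgNS and 0.80 and 0.48 TPM in METTL16 KO, and COL1A2 at 0.61 and 0.68 against 1.01 and 1.18 TPM, without overlap. With genes of all levels above 0 tested, 2 of the 6 markers were called higher and 1 lower. Their part in the results below was not tested.

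Of the 32 genes tested, 16 fell (50%, against 25.6% of all genes), 11 rose (34.4%, against 50.1%) and 5 did not pass the threshold. After median-ratio scaling 18 fell and 10 rose, and after quantile normalization 17 fell and 11 rose. The median log2 fold change of the 32 genes was -0.13, beside 0.16 for all genes tested, and -0.29 beside about 0 after median-ratio scaling. In 29 of 32 genes (90.6%) both sgNS values lay on one side of both METTL16 KO values, which held for 87.4% of all genes and therefore says little about these. The falls of at least 2-fold were those of PFKL, PFKM, PFKFB4 and PKLR, 12.5% of the genes tested against 3.77% of all genes. The rises of that size were those of HK2, PFKFB3, LDHB and PCK1, 12.5% against 7.7%, and at a minimum mean of 5 TPM only HK2 and PFKFB3 were left among them. PKLR, PCK1 and PDK4 passed the filter of 1 TPM only through the group where they were higher, so counts that hold them are no support for a change of the whole set. In sum the 38 genes took 0.908% and 0.906% of all TPM in sgNS and 0.818% and 0.805% in METTL16 KO. Since TPM is a share of a fixed total in bulk RNA, less RNA per cell and fewer cells of a kind cannot be told apart in any of these values.

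**Figure D1:**
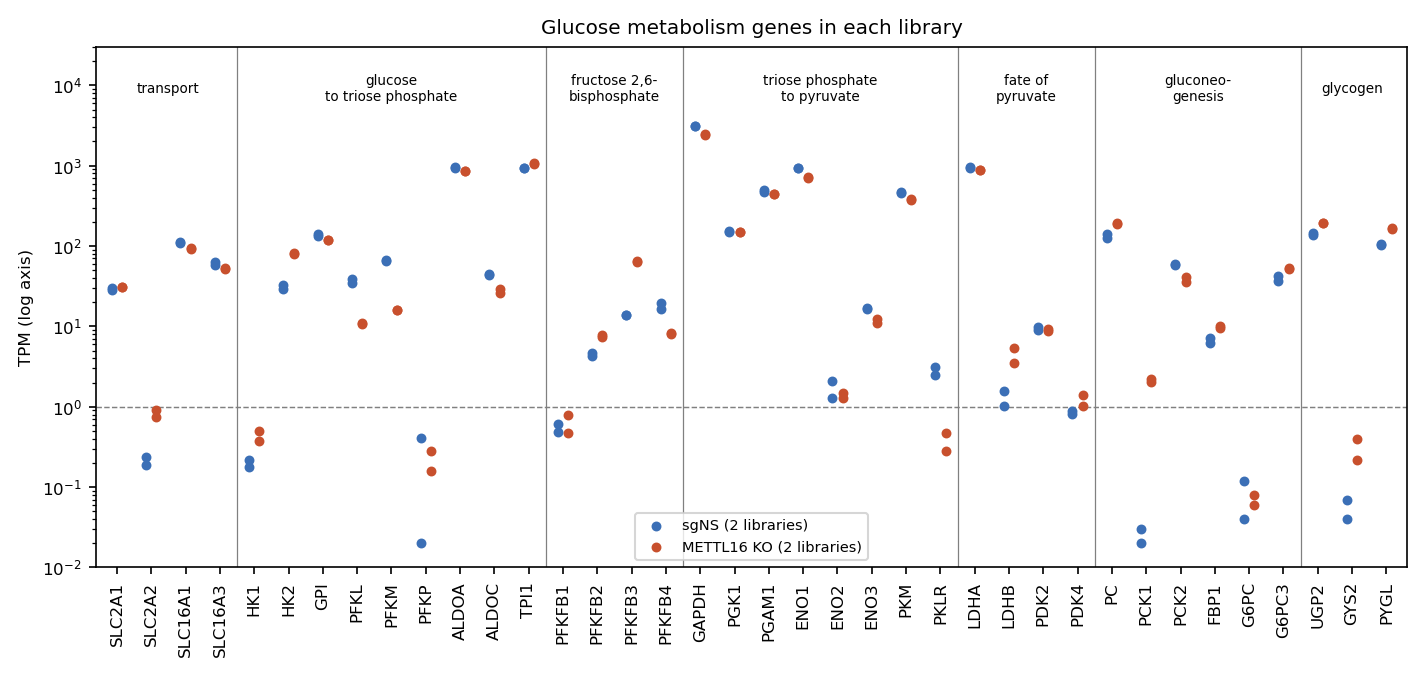
Level of each of the 38 genes in each library, in TPM on a log axis, ordered by pathway step, with 2 sgNS libraries (blue) and 2 METTL16 KO libraries (red). PFKL, PFKM and PKLR sit lower in METTL16 KO and HK2, PFKFB3 and PCK1 higher, while the abundant enzymes GAPDH, ALDOA, TPI1, ENO1 and LDHA stay between 713 and 3149 TPM. The dashed line marks 1 TPM, the mean needed for testing.

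The main glucose uptake gene did not pass the threshold. SLC2A1, which encodes the glucose transporter GLUT1, was at 30.0 and 28.6 TPM in sgNS and 31.2 and 30.7 TPM in METTL16 KO, a log2 difference of 0.08 (adjusted p = 0.21, limma) that turned to -0.09 after median-ratio scaling and -0.10 after quantile normalization. SLC2A2, the liver transporter GLUT2, was at 0.24 and 0.19 TPM in sgNS and 0.90 and 0.75 TPM in METTL16 KO, under the level required for testing. Lactate export genes were lower. SLC16A1 (MCT1) fell from 111.2 and 110.2 TPM to 94.7 and 90.7 TPM, by 0.26 log2. SLC16A3 (MCT4) fell from 63.4 and 57.6 TPM to 53.3 and 51.5 TPM, by 0.21 log2 (adjusted p = 0.0049, limma), and without METTL16 KO replicate 2 that adjusted p was 0.076.

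The genes of the first, one-way steps of glucose breakdown moved in opposite directions. HK2 (chr2:74834127-74893359, plus strand), the hexokinase of many tumours, was at 32.3 and 29.3 TPM in sgNS and 80.5 and 81.5 TPM in METTL16 KO. Its mean rose from 30.8 ± 2.1 to 81.0 ± 0.72 TPM (SD, n = 2), 2.63-fold (log2 1.39, SE 0.054, limma adjusted p = 3.0e-09). HK2 held 99.3% of the summed hexokinase TPM in both groups. HK1, the widely expressed form, was at 0.18 and 0.22 TPM in sgNS and 0.50 and 0.37 TPM in METTL16 KO.

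Phosphofructokinase, which spends ATP to commit fructose 6-phosphate to glycolysis, fell in both of its expressed forms. PFKM (chr12:48105139-48146404, plus strand), the muscle form, was at 67.4 and 64.4 TPM in sgNS, against 15.8 and 16.0 TPM in METTL16 KO. Its mean fell 4.15-fold, from 65.9 ± 2.1 to 15.9 ± 0.099 TPM (log2 -2.05, SE 0.052, limma adjusted p = 1.5e-10), and only 34 of the 11971 genes had a lower log2 fold change. PFKL (chr21:44300051-44327376, plus strand), the liver form, was at 39.3 and 34.9 TPM in sgNS, against 10.8 and 11.0 TPM in METTL16 KO. Its mean fell 3.40-fold, from 37.1 ± 3.1 to 10.9 ± 0.16 TPM (log2 -1.75, SE 0.069, limma adjusted p = 3.4e-09), with 69 genes lower. The platelet form PFKP was at 0.02 and 0.41 TPM in sgNS and 0.16 and 0.28 TPM in METTL16 KO, overlapping and too low to be tested.

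Summed over the 3 forms, phosphofructokinase went from 106.7 and 99.7 TPM to 26.8 and 27.3 TPM, 3.82-fold lower. The mix of forms shifted little beside that drop: PFKM held 63.9% ± 1.0 of the sum in sgNS and 58.8% ± 0.37 in METTL16 KO (SD, n = 2). The order of the first committed steps turned over. Phosphofructokinase TPM was 3.29 and 3.37 times the hexokinase TPM in the sgNS libraries, and hexokinase TPM was 3.02 and 3.01 times the phosphofructokinase TPM in the METTL16 KO libraries. An exact two-sided permutation test of 2 against 2 libraries cannot give a p under 0.33, so these sums, shares and ratios are given without a test.

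PFKFB genes, whose enzymes set fructose 2,6-bisphosphate, exchanged places. PFKFB3 (chr10:6144934-6254644, plus strand), a form with high kinase activity, was at 13.7 and 13.8 TPM in sgNS, against 63.3 and 65.1 TPM in METTL16 KO. It rose 4.67-fold, from 13.7 ± 0.099 to 64.2 ± 1.3 TPM (log2 2.22, SE 0.052, limma adjusted p = 8.1e-11), and 158 genes had a higher log2 fold change. PFKFB4 (chr3:48517684-48562015, minus strand) was at 19.6 and 16.3 TPM in sgNS, against 8.17 and 8.04 TPM in METTL16 KO. It fell 2.22-fold, from 18.0 ± 2.3 to 8.11 ± 0.092 TPM (log2 -1.13, SE 0.091, limma adjusted p = 7.9e-07). PFKFB2, the heart form, rose from 4.60 and 4.31 TPM to 7.73 and 7.40 TPM (log2 0.75, SE 0.098, limma adjusted p = 3.7e-05). PFKFB1, the liver form, was at 0.61 and 0.49 TPM in sgNS and 0.47 and 0.80 TPM in METTL16 KO, with the groups overlapping.

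In total the PFKFB genes went from 38.5 and 34.9 TPM to 79.7 and 81.3 TPM. PFKFB4 held the largest share in sgNS, 48.9% ± 3.0 against 37.5% ± 2.8 for PFKFB3, and PFKFB3 held 79.7% ± 0.41 in METTL16 KO, with 10.1% ± 0.26 left for PFKFB4 (SD, n = 2). Phosphofructokinase TPM was 2.77 and 2.86 times the PFKFB TPM in sgNS, and PFKFB TPM was 2.97 and 2.98 times the phosphofructokinase TPM in METTL16 KO. The ratio of the fructose bisphosphatases FBP1 and FBP2, which work against phosphofructokinase, to the phosphofructokinase forms was 0.0697 and 0.0626 in sgNS and 0.382 and 0.391 in METTL16 KO.

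**Figure D2:**
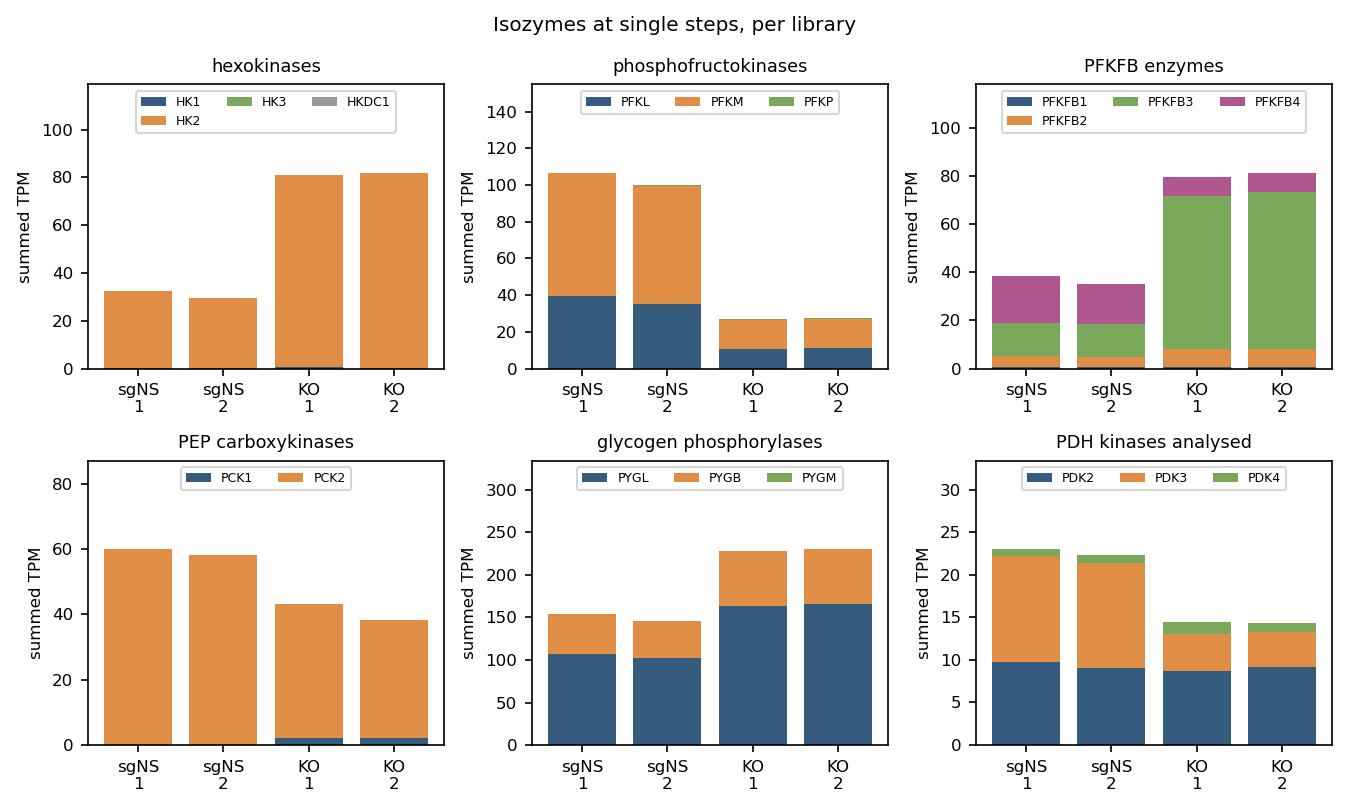
Summed TPM of the isozymes at 6 steps in each library, with each isozyme as a stacked segment, for 2 sgNS and 2 METTL16 KO libraries. Hexokinase TPM (almost all HK2) and PFKFB TPM are higher and phosphofructokinase TPM lower in METTL16 KO. PFKFB3 takes 79.7% of the PFKFB sum in METTL16 KO. PCK1 appears beside PCK2, and PDK3 shrinks among the PDH kinases analysed, which are PDK2, PDK3 and PDK4 and not the whole family. No test was run on the sums.

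The promoters of these genes are shown because HK2 and PFKFB3 rose while PFKL and PFKM fell. Each is the 250 bases before the gene's first listed start in RefSeq (GRCh38.p14, read 5′ to 3′ on the gene's strand), at chr2:74833877-74834126 for HK2, chr10:6144671-6144920 for PFKFB3, chr21:44299803-44300052 for PFKL and chr12:48105623-48105872 for PFKM, all on the plus strand. Capitals mark ACGTG and GCGTG on either strand, the core forms of the hypoxia response element bound by hypoxia-inducible factors. ACGTG also lies within the E-box CACGTG, which was searched as well.
HK2: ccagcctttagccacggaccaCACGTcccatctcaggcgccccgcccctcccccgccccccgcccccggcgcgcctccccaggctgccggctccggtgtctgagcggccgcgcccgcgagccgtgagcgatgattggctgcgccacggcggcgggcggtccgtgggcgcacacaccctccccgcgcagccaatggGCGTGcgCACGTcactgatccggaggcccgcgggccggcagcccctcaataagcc
PFKFB3: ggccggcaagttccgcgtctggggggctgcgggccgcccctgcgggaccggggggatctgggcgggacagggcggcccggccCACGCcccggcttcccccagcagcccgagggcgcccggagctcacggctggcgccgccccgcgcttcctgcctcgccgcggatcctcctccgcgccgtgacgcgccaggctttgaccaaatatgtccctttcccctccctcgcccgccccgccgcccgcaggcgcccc
PFKL: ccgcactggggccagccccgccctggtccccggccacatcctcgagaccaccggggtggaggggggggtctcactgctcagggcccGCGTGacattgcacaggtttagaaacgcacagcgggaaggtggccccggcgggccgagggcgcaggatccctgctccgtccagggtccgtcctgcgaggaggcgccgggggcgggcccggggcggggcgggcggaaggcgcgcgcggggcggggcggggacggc
PFKM: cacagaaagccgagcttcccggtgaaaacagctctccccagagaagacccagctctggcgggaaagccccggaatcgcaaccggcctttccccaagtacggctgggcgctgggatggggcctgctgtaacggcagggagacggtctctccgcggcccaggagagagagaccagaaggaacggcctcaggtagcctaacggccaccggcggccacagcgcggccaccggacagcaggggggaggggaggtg
HK2 held 2 matches to ACGTG and 1 to GCGTG, PFKFB3 and PFKL held 1 match to GCGTG each, and PFKM held none in this window. Further starts of HK2 and PFKFB3 have windows of their own, with 2 E-boxes and 1 E-box, and PFKM has further windows, of which 1 (chr12:48105231-48105480) holds ACGTG. Gene-level TPM does not tell which start was used.

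RefSeq windows were found for 34 of the 38 genes, 69 windows in all. ACGTG on either strand was in 24 of these (34.8%) and in 18.5% of all 35116 windows of the same length. GCGTG was in 19 (27.5%), against 32.2% of all windows, and CACGTG in 11 (15.9%), against 6.34%. Windows of 1 gene overlap and share bases, so these shares are descriptions. Genes with ACGTG in a window included HK2 and PFKFB3, which rose, PFKM, GAPDH, ALDOC and LDHA, which fell, and PGK1, which did not pass the threshold.

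Lower in the first phase of the pathway, single genes changed by smaller amounts. GPI, which interconverts glucose and fructose phosphates, fell from 140.2 and 133.3 TPM to 117.9 and 120.1 TPM (log2 -0.20). ALDOA, the most abundant aldolase, fell from 974 and 942 TPM to 859 and 862 TPM (log2 -0.15). ALDOC, the brain form, was at 44.7 and 43.4 TPM in sgNS and 28.8 and 26.1 TPM in METTL16 KO, and fell from 44.1 ± 0.93 to 27.5 ± 1.9 TPM (log2 -0.68, SE 0.059, limma adjusted p = 1.4e-06). TPI1, which interconverts the triose phosphates, was the single one to rise among the glycolytic enzymes above 100 TPM, from 943 and 926 TPM to 1094 and 1063 TPM (log2 0.21, limma adjusted p = 4.5e-05). After median-ratio scaling its log2 fold change was 0.04 with an adjusted p of 0.19.

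From triose phosphate to pyruvate, 6 of 8 genes fell and none rose, where 25.6% of all genes fell and 50.1% rose. At this step most falls were of under 1.5-fold in highly expressed genes. GAPDH went from 3087 and 3149 TPM to 2447 and 2394 TPM (log2 -0.37, limma adjusted p = 2.0e-07). Quantile normalization, which sets values by rank alone, gave 0 log2 and removed the call. A fall in TPM that leaves a gene at the same rank cannot show on that scale. PGK1 did not pass the threshold, with 149.6 and 151.9 TPM in sgNS and 151.2 and 148.4 TPM in METTL16 KO (log2 -0.01, limma adjusted p = 0.83). PGK1 was called lower after median-ratio scaling (log2 -0.17, adjusted p = 0.0013). PGAM1 fell from 476 and 495 TPM to 439 and 445 TPM (log2 -0.14). GAPDH, PGK1, PGAM1, ENO1 and LDHA have processed pseudogene copies. Reads may thus have been split between near-identical sequences, which was not tested, and the single values of these genes are uncertain.

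The enolases, which make phosphoenolpyruvate, were lower in sum, from 959.8 and 946 TPM to 735 and 725 TPM. ENO1, the main form at 98.1% of the sum in sgNS, fell from 940.7 and 928 TPM to 721 and 713 TPM (log2 -0.38, limma adjusted p = 2.9e-07). ENO3, the muscle form, fell from 17.0 and 16.4 TPM to 12.5 and 11.0 TPM (log2 -0.50, SE 0.077, limma adjusted p = 1.2e-04). ENO2, the neuronal form, was at 2.11 and 1.29 TPM in sgNS and 1.47 and 1.30 TPM in METTL16 KO, with overlapping groups and an adjusted p of 0.38. ENO2 was called lower after quantile normalization (log2 -0.65, limma adjusted p = 0.0345).

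Pyruvate kinase, the last step, is made by PKM in most cells and by PKLR in liver and red cells. PKM fell from 467 and 454 TPM to 383 and 370.4 TPM (log2 -0.29, limma adjusted p = 9.8e-06). PKLR (chr1:155289293-155301438, minus strand) was at 3.10 and 2.50 TPM in sgNS, against 0.28 and 0.47 TPM in METTL16 KO, so even the lower sgNS library was above both METTL16 KO libraries. Its mean fell 7.47-fold, from 2.80 ± 0.42 to 0.375 ± 0.13 TPM (log2 -2.63, SE 0.267, limma adjusted p = 5.1e-06), and 11 of the 11971 genes had a lower log2 fold change. PKLR entered the test only through its sgNS level, since its METTL16 KO mean was under 1 TPM. At this low level the size depends on the pseudocount, with a log2 fold change of -1.47 at a pseudocount of 1 and -2.90 at 0.01, and the call held at both. PKLR was 0.604% of pyruvate kinase TPM in sgNS and 0.0999% in METTL16 KO.

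One RefSeq window of PKLR, chr1:155300953-155301202 on the minus strand of GRCh38.p14, is shown because it holds a match to the spaced motif of the carbohydrate response element, the type of site through which glucose is known to act on PKLR in liver. Capitals mark the match, CACGNG and CNCGTG with 5 bases between them, which begins 126 bases before the start. The motif was chosen after the windows had been read.
PKLR: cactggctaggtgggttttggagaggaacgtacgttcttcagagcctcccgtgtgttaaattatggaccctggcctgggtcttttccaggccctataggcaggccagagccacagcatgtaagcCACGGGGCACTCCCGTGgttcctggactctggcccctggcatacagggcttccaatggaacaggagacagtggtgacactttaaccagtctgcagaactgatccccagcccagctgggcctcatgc
Of all 35116 windows 7 held this motif (0.02%), and of the 69 windows of these genes 1 did. The other PKLR window has an E-box and no match to the spaced motif.

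**Figure D3:**
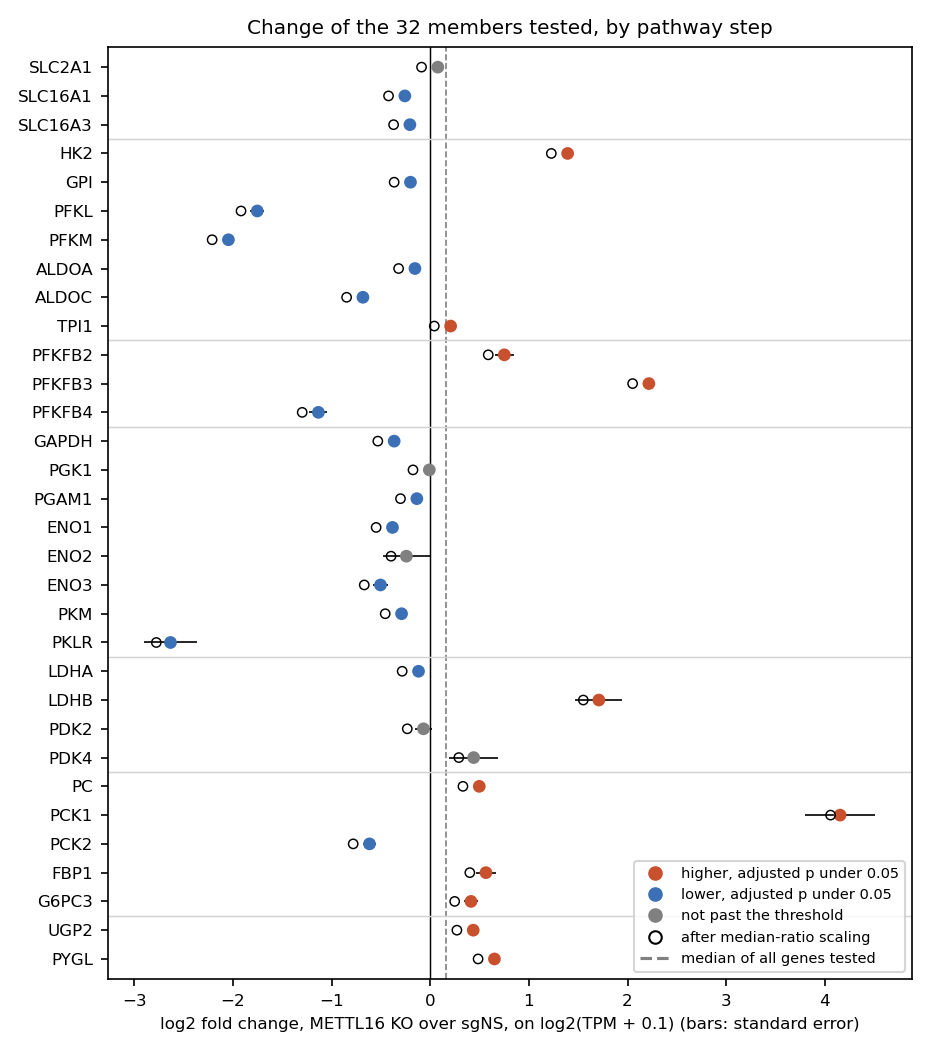
Log2 fold change of METTL16 KO over sgNS on log2(TPM + 0.1) for the 32 genes tested, grouped by step, with bars for the standard error (2 libraries a group), open circles for the value after median-ratio scaling and a dashed line at the median of all genes, 0.16. From triose phosphate to pyruvate all 8 points lie below 0, from -2.63 for PKLR to -0.01 for PGK1, while 4 of 5 gluconeogenesis genes and both glycogen genes lie above it.

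Genes that set the fate of pyruvate showed 1 fall and 1 rise among 4 tested, where 25.6% of all genes fell and 50.1% rose. LDHA, which encodes the main subunit of lactate dehydrogenase, fell from 945 and 965 TPM to 884 and 876 TPM (log2 -0.12, limma adjusted p = 0.0021). LDHB (chr12:21635342-21757857, minus strand), the heart subunit, was at 1.01 and 1.58 TPM in sgNS, against 5.44 and 3.50 TPM in METTL16 KO. It rose 3.45-fold, from 1.29 ± 0.40 to 4.47 ± 1.4 TPM (log2 1.71, SE 0.239, limma adjusted p = 6.2e-05), and the METTL16 KO libraries differed more from each other than in most genes here. Its share of lactate dehydrogenase TPM was still only 0.505% in METTL16 KO, after 0.135% in sgNS.

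The PDH kinases switch off pyruvate dehydrogenase and so keep pyruvate out of the citric acid cycle. Those analysed were PDK2, PDK3 and PDK4, not the whole family. PDK2 was at 9.71 and 9.06 TPM in sgNS and 8.70 and 9.19 TPM in METTL16 KO, with overlapping groups, a log2 difference of -0.07 and an adjusted p of 0.47. PDK2 was called lower after median-ratio scaling (log2 -0.23, adjusted p = 0.025) and after quantile normalization (log2 -0.24, adjusted p = 0.019). PDK4 was at 0.81 and 0.88 TPM in sgNS and 1.38 and 1.01 TPM in METTL16 KO, without overlap, with a log2 difference of 0.44 and an adjusted p of 0.13 that became -0.12 and 0.70 under quantile normalization. PDK3, read from another list, fell from 12.5 and 12.4 TPM to 4.37 and 4.15 TPM (log2 -1.52, limma adjusted p = 6.1e-08).

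Of 5 gluconeogenesis genes tested 4 rose and 1 fell, where 50.1% of all genes rose and 25.6% fell. PC, the mitochondrial carboxylase that starts the route, went from 140.7 and 126.7 TPM to 191 and 185.7 TPM (log2 0.50, limma adjusted p = 3.7e-06). FBP1, the bisphosphatase that reverses phosphofructokinase, rose from 7.24 and 6.18 TPM to 9.67 and 10.2 TPM (log2 0.57, SE 0.097, limma adjusted p = 2.9e-04). G6PC3, the widely expressed glucose 6-phosphatase, rose from 43.0 and 36.5 TPM to 53.2 and 52.4 TPM (log2 0.41, limma adjusted p = 2.3e-04). G6PC, the liver form that releases glucose to the blood, was at 0.04 and 0.12 TPM in sgNS and 0.06 and 0.08 TPM in METTL16 KO, so its level was close to 0 and overlapping.

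The PEP carboxykinases, which turn oxaloacetate into phosphoenolpyruvate, moved apart. PCK1 (chr20:57561080-57568121, plus strand), the cytosolic form of gluconeogenic liver, was at 0.02 and 0.03 TPM in sgNS, against 2.05 and 2.20 TPM in METTL16 KO. It rose from near the rounding limit of the table, with a log2 fold change of 4.15 (SE 0.358, limma adjusted p = 1.4e-06) that was 1.61 at a pseudocount of 1 and 5.94 at 0.01, and the call held at both. PCK1 entered the test only through its METTL16 KO level. PCK2 (chr14:24094053-24110598, plus strand), the mitochondrial form, was at 59.9 and 58.1 TPM in sgNS, against 41.1 and 36.0 TPM in METTL16 KO. It fell from 59.0 ± 1.3 to 38.6 ± 3.6 TPM (log2 -0.62, SE 0.062, limma adjusted p = 4.9e-06). PCK2 remained the main form, with PCK1 at 0.0425% of their sum in sgNS and 5.25% in METTL16 KO, and the sum went from 59.9 and 58.2 TPM to 43.2 and 38.2 TPM.

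Both glycogen genes tested rose, where 50.1% of all genes rose, so the count alone says little. UGP2, which makes UDP-glucose, the building block of glycogen, went from 138.2 and 147.0 TPM to 194.6 and 191.3 TPM (log2 0.44, limma adjusted p = 2.1e-06). PYGL, the liver phosphorylase that breaks glycogen down, was at 106.7 and 102.9 TPM in sgNS and 163.4 and 165.8 TPM in METTL16 KO, and rose from 105 ± 2.7 to 165 ± 1.7 TPM (log2 0.65, SE 0.038, limma adjusted p = 6.8e-08). With PYGB and PYGM added, phosphorylase TPM went from 154 and 146 to 229 and 230.4, and PYGL held 69.8% and 71.7% of it. GYS2, the liver glycogen synthase, was at 0.04 and 0.07 TPM in sgNS and 0.40 and 0.22 TPM in METTL16 KO, too low for testing. GYS1, the synthase expressed here, fell from 25.0 and 24.4 TPM to 21.0 and 19.6 TPM (log2 -0.29, limma adjusted p = 0.0013). It was chosen after its values were seen, as the counterpart of GYS2.

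Other genes of glucose metabolism were counted in 7 lists of 99 genes, of which 97 had a row and 83 were tested. Of these, 29 fell (34.9%), 41 rose (49.4%) and 13 did not pass the threshold, and their median log2 fold change, 0.16, was the same as that of all genes. The split turned to 39 lower and 32 higher after median-ratio scaling and to 36 and 32 after quantile normalization.

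Among 17 other glycogen genes 9 fell (52.9%, against 25.6% of all genes) and 8 rose (47.1%, against 50.1%). PHKG2, a catalytic subunit of phosphorylase kinase, fell by 1.11 log2 and the primer protein GYG2 by 0.82. PHKA2, a regulatory subunit of phosphorylase kinase, rose by 0.83, and the phosphatase-targeting subunits PPP1R3C and PPP1R3D rose by 0.83 and 0.61. Thus genes of both synthesis and breakdown were in each direction.

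Of 11 genes of pyruvate import and pyruvate dehydrogenase, 5 fell and 5 rose (45.5% each, against 25.6% and 50.1% of all genes). MPC1, a subunit of the mitochondrial pyruvate carrier, rose from 55.2 and 67.2 TPM to 199.6 and 200.2 TPM (log2 1.71, limma adjusted p = 5.3e-09). Its partner MPC2 rose by 0.64 and PDPR, a regulator of the dehydrogenase phosphatase, by 0.50. DLAT, the acetyltransferase core of pyruvate dehydrogenase, fell from 112.2 and 114 TPM to 57.9 and 55.7 TPM (log2 -0.99, limma adjusted p = 5.5e-09). The phosphatase gene PDP2 fell by 0.28.

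In the pentose phosphate pathway, which draws on glucose 6-phosphate for NADPH and ribose, 5 of 8 genes fell and 2 rose. These were 62.5% and 25%, against 25.6% and 50.1% of all genes. TALDO1 fell by 0.72, TKT by 0.70 and PGLS by 0.61 log2. The rises were those of H6PD (0.43), an enzyme of the endoplasmic reticulum, and RPE (0.24), the latter below the threshold under both scalings. Of 4 fructose and polyol genes, SORD, which makes fructose from sorbitol, fell by 1.10 and KHK, which phosphorylates fructose, rose by 0.92.

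Among 9 further isozymes and transporters 2 fell (22.2%, against 25.6% of all genes) and 5 rose (55.6%, against 50.1%). SLC37A4, which carries glucose 6-phosphate into the endoplasmic reticulum for G6PC, fell by 0.82, and BSG, the chaperone of the lactate transporters, by 0.19. TIGAR, a phosphatase that acts on fructose 2,6-bisphosphate, rose by 1.15. PGAM2, the muscle mutase, rose by 0.96, and quantile normalization took it to an adjusted p of 0.11. It was at 0.68 and 0.82 TPM in sgNS and 1.53 and 1.56 TPM in METTL16 KO. PGAM2 thus entered the test only through its METTL16 KO level, so the count that holds it is no support for a change of this list.

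Hypoxia response genes outside glycolysis did not move one way. Of 13 tested, 4 fell (30.8%, beside 25.6% of all genes) and 8 rose (61.5%, beside 50.1%). After median-ratio scaling 4 were lower and 6 higher. NDRG1 rose from 104 and 100.5 TPM to 404 and 397.8 TPM (log2 1.97), ADM by 1.39 and EGLN1 by 0.59. BNIP3 fell by 0.50, MXI1 by 0.41 and BNIP3L by 0.31.

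Of 21 regulators of glucose metabolism 3 fell and 12 rose, a split of 8 and 9 after median-ratio scaling and of 6 and 10 after quantile normalization. The falls were 14.3% of the list, against 25.6% of all genes, and the rises 57.1%, near the 50.1% of all genes. Of the 11971 genes, 4375 were lower and 4359 higher after median-ratio scaling, and 4248 and 4420 after quantile normalization. SREBF1, which drives lipogenic transcription, fell by 0.54 log2, FOXO1, an activator of gluconeogenic genes, by 0.51 and KLF15 by 0.41. EPAS1 (HIF-2α) rose by 0.85, the AMPK subunit PRKAA2 by 0.73 and the glucocorticoid receptor NR3C1 by 0.73. HIF1A, chosen after its values were seen because of the motifs above, rose by 0.63. Transcript levels do not report the activity of these factors.

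**Figure D4:**
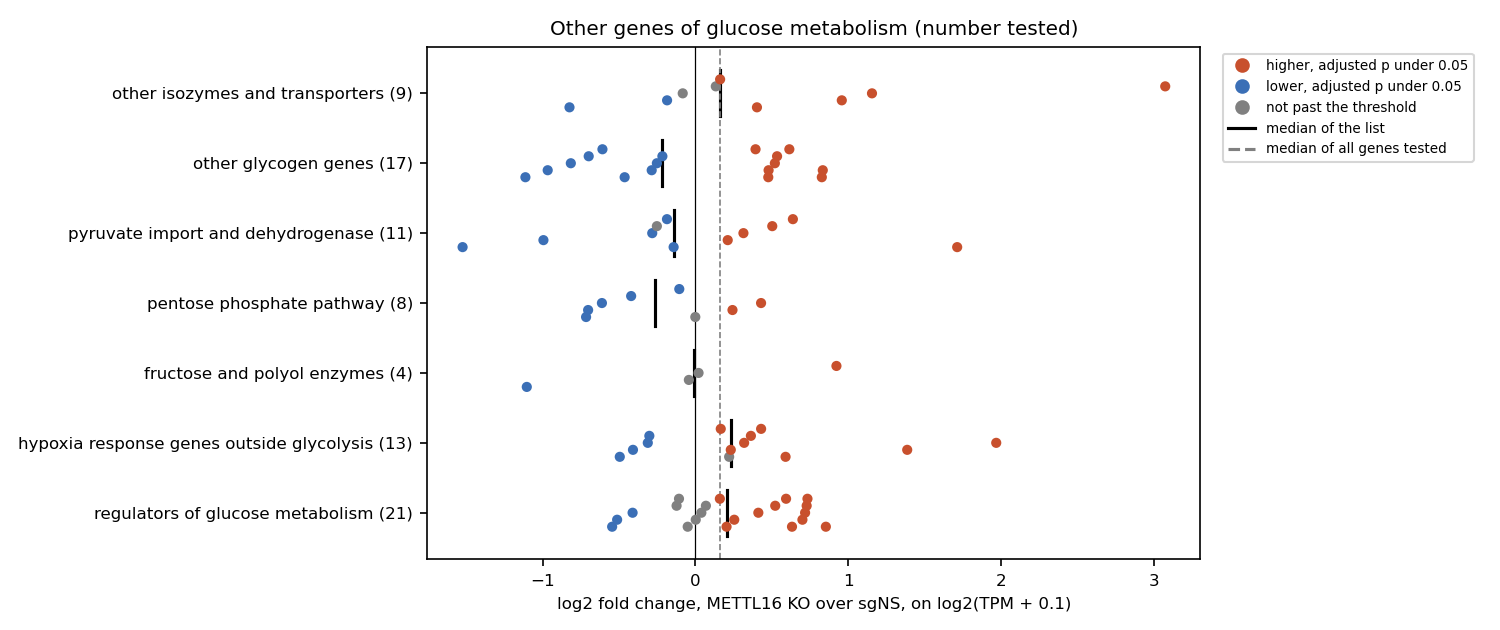
Log2 fold change of METTL16 KO over sgNS on log2(TPM + 0.1) for the 83 tested genes of 7 other lists, 1 point a gene, red for higher and blue for lower at an adjusted p under 0.05 and grey for neither, from 2 libraries a group. Black bars mark list medians and the dashed line the median of all genes, 0.16. In all 7 lists points lie on both sides of 0, and PDK3 is the lowest point, at -1.52.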

How the data were processed

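RNA-seq was read in 4 Huh7 libraries, 2 with sgNS and 2 with sgMETTL16. Gene levels deposited by the authors are TPM, rounded to 2 decimals, and each library sums to 1000000. The methods name the unit RPKM. Before deposit, Cutadapt trimming, STAR alignment (GRCh38) and RSEM quantification were done, with versions and annotation not given in the sources used here. Depth is unknown from TPM, so no counting interval or count test was used.

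From the deposited TPM, log2(TPM + 0.1) was fitted for all 11971 genes with a mean of at least 1 TPM by limma 3.58.1 (lmFit, eBayes with trend, two-sided, no block) in R 4.3.3, with Benjamini-Hochberg adjustment over all of them. Fold changes on this scale understate the change of low genes. Levels are given as mean ± SD. The fit was tested on simulated data in which few genes changed, all by the same amount. That setting is unlike these libraries, where most genes were called, so it says little about the calls given here. Genes past the threshold that changed by 0.5 log2 or more, and their isozymes, were given per library, with up to 3 others per step and up to 3 per direction from each other list. The members and lists were chosen with earlier results of these data known. Alternatives were pseudocounts, filters, scalings, a replicate block, no trend, and each library left out. Positions are those of GENCODE 44 on GRCh38, and promoter sequences are from RefSeq GRCh38.p14. Python 3.11.15, numpy 2.4.6, pandas 2.3.3 and matplotlib 3.10.9 were used. A few results are not reported here.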

Additional observations from a re-analysis of the deposited data

How the results depend on the processing

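Of the 27 members called, all kept their call in each alternative that tested them except TPI1 (median-ratio scaling), GAPDH (quantile normalization), PGAM1 and LDHA (no trend) and SLC16A3 (without METTL16 KO replicate 2). METTL16 stayed called lower throughout, by -0.68 to -0.45 log2. With a minimum mean of 5 TPM, 2 members rose at least 2-fold, since PCK1 and LDHB were no longer tested. The members' median log2 fold change was -0.029 when all genes above 0 in at least 1 library were tested and -0.29 after median-ratio scaling, and leaving out 1 library gave -0.13 to -0.075. Some members that were not called changed sign: SLC2A1 to -0.088 (median-ratio) and -0.098 (quantile), and PDK4 to -0.12 (quantile). With 1 library left out, PGK1 ranged over -0.022 to 0.0047 and ENO2 over -0.58 to 0.093. PGK1 and PDK2 were called lower after median-ratio scaling, and PDK2 and ENO2 after quantile normalization. The cause was not tested. The groups share replicate numbers, but same-numbered libraries did not deviate together (correlation of deviations -0.0445 over 11971 genes). No pairing by number was seen, but this check cannot tell whether same-numbered libraries were prepared together. With the replicate block, which leaves 1 residual degree of freedom, 16 members were lower and 11 higher, as without it. With 2 libraries a group and no known depth, small differences in genes near 1 TPM are poorly resolved.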
